A study of Mus musculus with 15 samples.

Results

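The genes described here encode, with a few exceptions, the proteins of the cytosolic ribosome. They were taken by symbol: every gene whose annotated symbol begins with Rpl or Rps and a digit, without a hyphen and outside the Rps6k kinases, on a probe set that names exactly 1 symbol. The rule found 47 of the 18193 genes measured, on 102 probe sets, and each gene was read on its probe set with the highest mean log2 level over the arrays. Of the 47 genes, 20 encode small subunit proteins and 20 large subunit proteins. The other 7 are the paralogs Rpl3l, Rpl7l1, Rpl22l1, Rpl39l, Rps4l and Rps27l, and Rps19bp1, which encodes a binding partner of the small subunit protein RPS19.

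Mouse lung RNA was read on single-colour Affymetrix arrays, 3 per group. The tumour group held lung tumours at 12 months, each array from part of a single tumour, of mice whose genotype includes Smad4d/d, a deletion of Smad4, which encodes the common partner of the receptor-activated SMADs. Their control group was wild type whole lung at 12 months. The mutant group at 7 months held whole lung of the same genotype, before tumours per the series design, and its control group was wild type whole lung at 7 months. All mice had a mixed background. The sources used here do not name the promoter or cell type that drives the deletion, and every difference below belongs to the whole genotype.

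A ribosome has a small and a large subunit, each a scaffold of ribosomal RNA that carries many different proteins. Ribosomal protein mRNAs are among the most abundant in most cells, and in mammals they begin with a run of pyrimidines, the 5′ terminal oligopyrimidine (TOP) tract. Through this tract, mTOR signalling controls mainly how strongly these mRNAs are translated, a step that the array signal does not read.

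To show genes with and without a pyrimidine run near an annotated start, the 15 bases on each side of it are given below. They cover genes that the results name, from the RefSeq promoter table of build GRCm38.p6, read 5′ to 3′ on the gene's strand. Capitals mark the longest run of C and T of at least 6 bases. The first base of each window is the one farthest upstream, and the first 15 bases lie before the annotated start. A run marked wholly there, as for Rpl37 and start 1 of Rps27l, is outside the annotated transcript. Whether the annotated starts are those used in these lungs was not tested, so a window without a run does not show that the mRNA lacks a TOP tract.
Rpl13a (chr7:45128731-45128760, minus strand): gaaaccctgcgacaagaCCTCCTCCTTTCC
Rpl12 (chr2:32961697-32961726, plus strand): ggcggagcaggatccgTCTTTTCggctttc
Rpl14 (chr9:120571502-120571531, plus strand): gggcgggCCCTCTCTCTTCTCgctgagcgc
Rpl37 (chr15:5116598-5116627, plus strand): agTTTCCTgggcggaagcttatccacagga
Rpl39 (chrX:37085208-37085237, minus strand): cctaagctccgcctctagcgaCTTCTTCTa
Rps6 (chr4:86857353-86857382, minus strand): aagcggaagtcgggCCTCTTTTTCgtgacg
Rps9 (chr7:3704026-3704055, plus strand): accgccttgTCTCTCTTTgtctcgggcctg
Rps27 (chr3:90213634-90213663, minus strand): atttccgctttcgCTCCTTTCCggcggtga
Rps27l, start 1 (chr9:66946071-66946100, plus strand): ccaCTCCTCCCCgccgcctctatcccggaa
Rps27l, start 2 (chr9:66946398-66946427, plus strand): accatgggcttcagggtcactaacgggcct
Rps4x (chrX:102189377-102189406, minus strand): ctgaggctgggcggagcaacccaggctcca
Rps3a1 (chr3:86142654-86142683, minus strand): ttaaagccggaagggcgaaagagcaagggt
Rpl3l (chr17:24727811-24727840, plus strand): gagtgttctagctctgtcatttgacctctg
Rpl3l has a second annotated start, also without such a run, and Rps16, Rpl7l1 and Rpl22 have none either. Of the 47 genes, 41 had an entry in the table. Within 20 bases of a start, 19 of these 41 genes (46.3%) held an unbroken run of at least 8 pyrimidines on the transcribed strand, against 18.4% of the 27025 genes in the table. The motif CTTTCC or CTTTTC, searched in the same stretch and strand, was found at 9 of the 41 genes (22%), against 3.9% of all genes. On the opposite strand the same motifs were found at 1 of the 41 genes (2.44%), against 3.49% of all genes. The motif TATAAA lay in the 250 bases before the start of 2 of the 41 genes (4.88%), against 8.94% of all genes. On the opposite strand it lay before 3 of the 41 genes (7.32%), against 7.23% of all genes. Each match can lie within a longer run and overlap the other motif; a match describes the letters only.

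On the probe sets chosen, the ribosomal protein genes were mostly very bright and varied little. Of the 47, 33 were among the 814 genes of highest mean log2(intensity + 16), a split chosen after the values were seen, and these are called bright below. By mean level over genes they ranked between place 2 (Rps29, a small subunit protein) and place 517 (Rpl22l1, a paralog of the large subunit protein gene Rpl22). Rps29 read 15195, 15376 and 14874 in the tumours, against 14973, 15444 and 15560 in wild type lung at 12 months. It read 15157, 14684 and 15378 in the mutant lungs, against 15555, 14050 and 15887 in wild type lung at 7 months. The values of Rps29 overlapped between the groups of each comparison. The standard deviation within a group, pooled over the 4 groups, had a median of 0.0531 (log2) for the bright ribosomal protein genes, 0.086 for the 814 genes of highest mean level and 0.164 for all 18193 genes. The 814 reach below the dimmest bright ribosomal protein gene, at place 517, so they are not matched in level.

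The 14 genes of lower level were Rpl12, Rpl14, Rpl27a, Rpl37, Rpl39, Rps6, Rps16, Rps25 and Rps27 of the subunits, with Rpl3l, Rpl7l1, Rpl39l, Rps4l and Rps19bp1. A low array level does not give the level of the mRNA, because probe sets of different genes cannot be compared and 24 of the 47 genes had only 1 probe set. Rps16, a small subunit protein gene, read 1 on 2 of 3 arrays in every group and had a highest value of 8.88. Rpl3l, a paralog of Rpl3 known mainly from muscle, read 12.8, 21.1 and 19.4 in tumours, against 14.87, 11.53 and 12.45 in wild type lung at 12 months. Both genes lay near the 16 added before taking logs, so these probe sets can show little.

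Tumours were first set against wild type lung of the same age. No ribosomal protein gene was called in either direction (limma, adjusted p under 0.05 over all genes), while 9.23% of all genes passed as higher in tumours and 6.02% as lower. Before adjustment, p was under 0.05 for 1 of the 47 genes, against 5595 of 18193. The median log2 difference of the 47 genes was -0.02, against 0.01 for all genes, and it ran between -0.16 (Rps27) and 0.34 (Rpl12). For 37 of the 47 genes (78.7%) the difference was smaller than 0.1, against 29.9% of all genes. At least 1.5-fold differences were seen in 0 of the 47 genes and in 15% of all genes.

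Differences were smallest among the bright genes. Of the 14 genes of lower level, 6 (42.9%) differed in tumours by less than 0.1 in log2. The median of these 14 was 0.08, with 10 above 0 and 4 below. In tumours, 31 of the 33 bright ribosomal protein genes (93.9%) differed from wild type by less than 0.1 in log2, against 36% of the 814 genes of highest mean level, which reach to lower levels. Of these 814 genes, 50 were called higher and 82 lower in tumours. The 95% interval of the tumour difference lay inside 1.5-fold in both directions for 44 of the 47 genes (93.6%), against 58.1% of all genes. The exceptions were Rpl12, Rps4l and Rps6. For all 33 bright genes the interval lay inside 1.3-fold, with outermost bounds of -0.35 and 0.36.

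**Figure D1:**
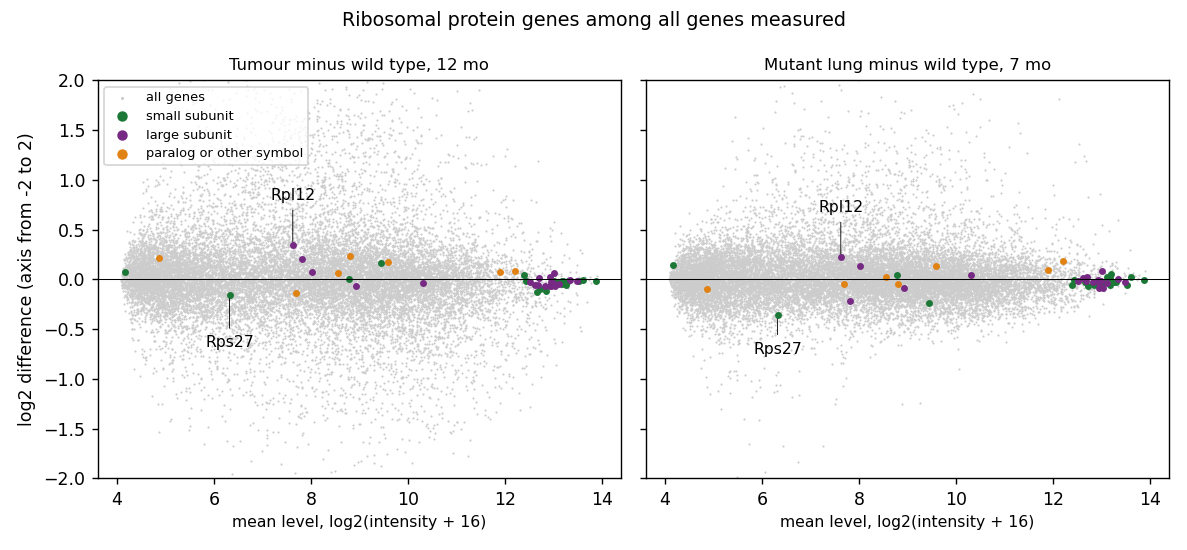
Mean level (x, log2(intensity + 16)) against log2 difference (y) for all genes (grey) and the 47 ribosomal protein genes (coloured by subunit), for tumours and for mutant lungs, each minus wild type of its age. Genes beyond a log2 difference of 2 in either direction are outside the axis. The bright ribosomal protein genes at the right lie close to 0 in both panels. Among the 47 genes, Rpl12 has the highest and Rps27 the lowest difference in each panel, both at lower levels.

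Small subunit genes ran between -0.16 and 0.16 in tumours, with a median of -0.02. Rpl13a, a large subunit protein, showed the usual pattern: it read 11608, 12026 and 10835 in tumours, against 11644, 11654 and 11629 in wild type lung at 12 months. Its values overlapped, with a log2 difference of -0.02 ± 0.08 (SE, adjusted p = 0.892). Rps4x, the small subunit protein encoded on the X chromosome, differed by -0.04 ± 0.07 (adjusted p = 0.732). Rps18, also of the small subunit, differed by -0.02 ± 0.07 (adjusted p = 0.911). Large subunit genes had a median of -0.03 and ran between -0.07 and 0.34.

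The highest tumour value was that of Rpl12, a protein at the stalk of the large subunit. It read 178.4, 180.3 and 220.9 in tumours, against 163.1, 147.6 and 135.2 in wild type lung at 12 months. All 3 tumours were above all 3 wild type lungs, with a log2 difference of 0.34 ± 0.12 (SE, adjusted p = 0.102). Rps27, a zinc-binding small subunit protein, was the lowest. It read 57.2, 62.1 and 66.4 in tumours, against 66.5, 73.4 and 72.6 in wild type lung. All 3 tumours lay below all 3 wild type lungs, the closest by a narrow margin, and the log2 difference was -0.16 ± 0.08 (adjusted p = 0.269).

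Rps9, a small subunit protein, had the lowest value among the bright genes. It read 6741, 7139 and 6663 in tumours, against 7517, 7318 and 7574 in wild type lung at 12 months. All tumours were lower on this probe set, with a log2 difference of -0.13 ± 0.07 (SE, adjusted p = 0.310). The other probe sets of Rps9 went the opposite way, with differences of 0.30 and 0.31. On the dimmer of them all 3 tumours lay above all 3 wild type lungs. In all, the 3 values of 1 group lay outside those of the other for 7 of the 47 genes (14.9%) in the tumour comparison, against 37.5% of all genes. On the probe sets chosen for each gene, Rpl12, Rpl14, Rpl22l1 and Rpl7l1 were higher on every tumour array, and Rpl39l, Rps27 and Rps9 were lower on every one.

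The 6 paralogs and Rps19bp1 did not pass the test in tumours either. The median log2 difference of these 7 genes was 0.09, and 6 of the 7 lay above 0. Rpl22l1 read 4178, 4210 and 4218 in tumours, against 3876, 3928 and 4137 in wild type lung at 12 months, a log2 difference of 0.08 ± 0.07 (SE, adjusted p = 0.526). Rpl22 itself read 7928, 8144 and 7513 in tumours, against 8217, 8121 and 8327 in wild type lung, with -0.07 ± 0.07 (adjusted p = 0.615). Rps4l, a paralog of Rps4x, differed by 0.24 ± 0.21 (adjusted p = 0.493) and Rpl3l by 0.21 ± 0.12 (adjusted p = 0.286). Rpl7l1, a paralog of Rpl7 that acts in ribosome assembly, differed by 0.17 ± 0.09 (adjusted p = 0.283). Rpl39l, a paralog of Rpl39 known mainly from testis, differed by -0.13 ± 0.08 (adjusted p = 0.341).

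At 7 months, before tumours per the series design, no ribosomal protein gene was called in mutant lungs. Of all genes, 6.42% were higher and 1.39% lower in mutant lungs (limma, adjusted p under 0.05). Before adjustment, p was under 0.05 for 3 of the 47 genes, Rpl14, Rps27 and Rps27l, against 4242 of 18193. The median log2 difference of the 47 genes was -0.02, against 0.01 for all genes, and it ran between -0.36 (Rps27) and 0.22 (Rpl12). Of the 47, 39 (83%) were within 0.1 of 0, against 40.3% of all genes. Among the bright genes, 32 of 33 (97%) were within 0.1, against 53.8% of those 814 genes. Among the genes of lower level, 7 of 14 (50%) were. The 95% interval lay inside 1.5-fold for 46 of the 47 genes (97.9%), all but Rps27, against 76.8% of all genes. At least 1.5-fold differences were seen in 0 of the 47 genes and in 4.94% of all genes.

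Rpl12 had the highest value at 7 months. It read 199.4, 214.6 and 241.6 in mutant lungs, against 180.1, 160.9 and 217.0 in wild type lung. The groups overlapped, with a log2 difference of 0.22 ± 0.14 (SE, adjusted p = 0.406). Rps16, whose probe set was mostly at 1, differed by 0.14 ± 0.14 (adjusted p = 0.594).

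Rps27 and Rpl14 were among the lowest. Rps27 read 63.9, 44.6 and 49.6 in mutant lungs, against 66.9, 82.7 and 66.4 in wild type lung at 7 months (log2 difference -0.36 ± 0.12 SE, adjusted p = 0.123). Rpl14, a large subunit protein, read 179.4, 184.4 and 200.1 in mutant lungs, against 233.4, 206.1 and 222.6 in wild type lung (-0.21 ± 0.08, adjusted p = 0.134). Both genes were lower on all 3 mutant arrays.

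Rps27l, a paralog of Rps27 that is a known p53 target, read 4466, 4832 and 4590 in mutant lungs, against 3903, 4429 and 3898 in wild type lung at 7 months. It was higher on all 3 mutant arrays, with a log2 difference of 0.18 ± 0.07 (SE, adjusted p = 0.157). Its other probe sets differed by 0.17 and 0.19, so its 3 probe sets gave similar values. In tumours Rps27l overlapped with wild type (0.09 ± 0.11, adjusted p = 0.651).

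Groups did not overlap for 6 of the 47 genes (12.8%) at 7 months, against 26.1% of all genes. Rpl27a, Rps2 and Rps27l were higher on every mutant array, and Rpl14, Rps27 and Rps3a1 lower. For Rps3a1, a small subunit protein, the separation was between means of 9809 ± 42.9 in mutant lungs and 9976 ± 46.9 in wild type lung at 7 months (SD, n = 3 each), a log2 difference of -0.02.

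Rps6, the small subunit protein that is phosphorylated below mTOR and S6 kinase, had no called difference. It read 978.2, 1010 and 804.7 in tumours, against 1008, 924.4 and 601.1 in wild type lung at 12 months (0.16 ± 0.21, adjusted p = 0.654). It read 694.1, 595.7 and 547.8 in mutant lungs, against 709.5, 681.1 and 776.6 in wild type lung at 7 months (-0.24 ± 0.12, adjusted p = 0.282). The groups overlapped at both ages, and the 95% intervals, -0.34 to 0.67 in tumours and -0.51 to 0.04 in mutant lungs, left room for changes larger than those of the bright genes. The other probe set of Rps6 was dim, with a mean intensity of 45.3. It went the opposite way in tumours (-0.32) and differed by -0.095 in mutant lungs.

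**Figure D2:**
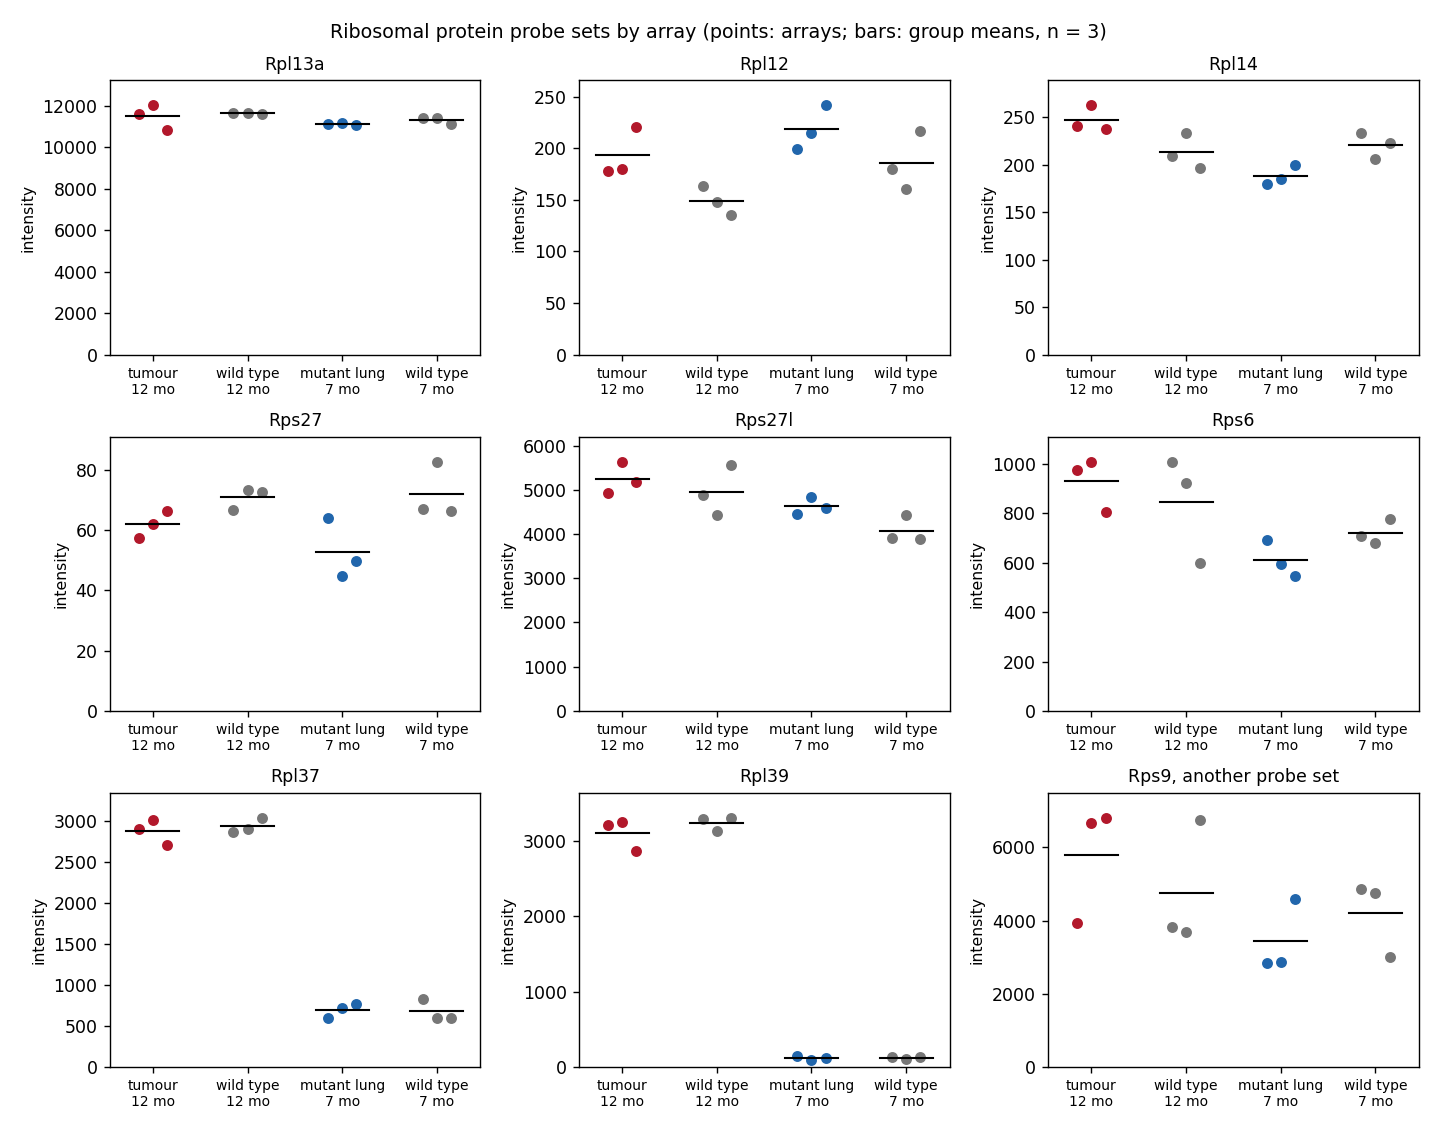
Intensity of 9 ribosomal protein probe sets (y, linear axes from 0) by group, with 1 point per array and a bar at the mean of 3 arrays. No ribosomal protein gene passed the test within an age; Rpl37 and Rpl39 stand far apart between the ages, and the second probe set of Rps9 splits arrays of the same group.

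The 2 differences were also set against each other, as tumour minus wild type at 12 months less mutant minus wild type at 7 months. Again no ribosomal protein gene was called, with 1.75% of all genes higher and 1.41% lower on this contrast. Before adjustment, p was under 0.05 for 1 of the 47 genes, Rpl14, against 3427 of 18193. Rpl14 read 240.3, 262.3 and 237.8 in tumours, against 208.8, 233.0 and 196.3 in wild type lung at 12 months. All tumours were higher (log2 difference 0.20 ± 0.09, adjusted p = 0.204), while at 7 months all mutant lungs were lower, and the contrast was 0.42 ± 0.11 (SE, adjusted p = 0.0698). It was called with 64 added before taking logs in place of 16 (adjusted p = 0.0489) and without the second wild type array at 12 months (adjusted p = 0.0466). The next highest contrasts were those of Rps6 (0.40 ± 0.24, adjusted p = 0.413) and Rpl3l (0.31 ± 0.27, adjusted p = 0.597). The lowest were those of Rps9, Rps27l and Rpl39l, between -0.10 and -0.09. The median contrast of the 47 genes was -0.01.

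Of the 47 genes, 23 could be read on more than 1 probe set. For Rpl13a the 3 brightest gave tumour differences between -0.04 and -0.02 and the dimmest 0.24. For Rps9 bright probe sets disagreed. Its other bright probe set read 3937, 6658 and 6802 in tumours, against 3824, 3695 and 6736 in wild type lung at 12 months. It read 2854, 2856 and 4592 in mutant lungs, against 4857, 4741 and 3000 in wild type lung at 7 months. Over both ages these values formed separate ranges, 3 arrays between 6658 and 6802 and 9 between 2854 and 4857. Arrays of 1 group fell into both ranges at 12 months. The arrays at 7 months split as well, within the lower range. Values lay between 2854 and 3000 or between 4592 and 4857, with mutant and wild type arrays in each. The chosen probe set of Rps9 covered 5667 to 7574 on the same 12 arrays. Of the 47 chosen probe sets, 13 have names ending in _x_at, whose probes can also bind related transcripts, so their signal may not be that of 1 gene alone. A further 2, those of Rpl22 and Rps9, end in _s_at, and whether these read 1 gene alone was not tested.

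A further 109 probe sets name such a symbol together with other symbols and stood outside the rule. They covered 45 symbols, 30 of them on no probe set of their own, and had a median level of 12.7 (log2). Their median log2 difference was -0.03 in tumours and -0.04 in mutant lungs. Differences under 0.1 were seen for 81 of them (74.3%) in tumours and 84 (77.1%) in mutant lungs. Most of these probe sets thus lay within the same narrow band as the 47 genes.

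The control probe sets for 18S ribosomal RNA, the RNA of the small subunit, went another way in tumours. The mean of the 3 probe sets was 1943, 2036 and 1121 in tumours, against 6718, 6933 and 5492 in wild type lung at 12 months. Every tumour array was below every wild type array, and the log2 difference was -1.96. On the same arrays the median intensity of the 33 bright ribosomal protein genes was 8209, 8491 and 8078 in tumours, against 8436, 8240 and 8487 in wild type lung. The ratio of the 18S signal to this median was 0.205 ± 0.0575 in tumours, against 0.761 ± 0.102 in wild type lung at 12 months (SD, n = 3 each).

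At 7 months the 18S signal was 8084, 6957 and 6556 in mutant lungs, against 6962, 7032 and 6866 in wild type lung. These groups overlapped, and the ratio to the bright genes was 0.925 ± 0.121 in mutant lungs and 0.881 ± 0.0361 in wild type lung (SD, n = 3 each). Labelling followed the Affymetrix 3′ IVT protocol per the labels, a method that starts from poly(A) tails, and 18S ribosomal RNA carries none, so its signal is no direct measure of ribosome content. The ratio of the 3′ to the 5′ control probe set for Gapdh was 1.37 ± 0.167 in tumours, against 1.36 ± 0.0153 in wild type lung at 12 months. For actin it was 1.70 ± 0.122 in tumours and 1.66 ± 0.0321 in wild type lung (n = 3 each). At 7 months the Gapdh ratio was 1.74 ± 0.214 in mutant lungs and 1.96 ± 0.433 in wild type lung. Single arrays lay between 1.61 and 2.45 at 7 months and between 1.22 and 1.55 at 12 months for Gapdh. The actin ratio at 7 months was 1.77 ± 0.119 in mutant lungs and 1.74 ± 0.117 in wild type lung. The part of RNA quality in the 18S difference, or in differences between the ages, was not tested.

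**Figure D3:**
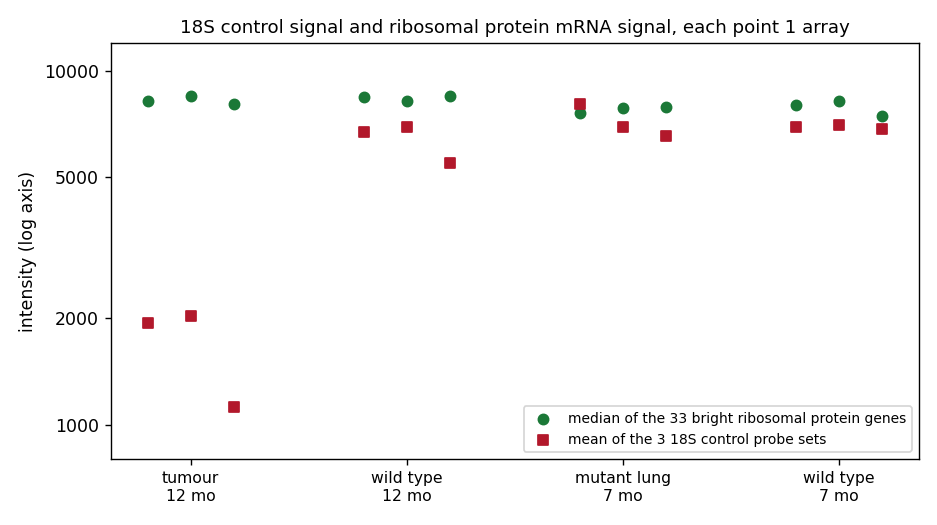
Intensity (y, log axis) of the 18S control probe sets (red squares, mean of 3) and the median of the 33 bright ribosomal protein genes (green circles) on each array, by group. The 3 tumours have 18S values from 1121 to 2036, below all other arrays, while the ribosomal protein median stays between 7448 and 8491 on all 12 arrays.

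Between the sets of arrays for the 2 ages, Rpl39 and Rpl37, small proteins of the large subunit, stood far apart from the other genes. Rpl39 read 3211, 3247 and 2863 in tumours, against 3290, 3124 and 3304 in wild type lung at 12 months. It read 142.6, 94.5 and 123.3 in mutant lungs, against 138.7, 112.6 and 130.0 in wild type lung at 7 months. Wild type lung at 12 months was thus 22.8-fold above wild type lung at 7 months on the log2(intensity + 16) scale, while within each age the groups overlapped.

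Rpl37 read 2899, 3005 and 2703 in tumours, against 2857, 2899 and 3035 in wild type lung at 12 months. It read 593.4, 721.5 and 772.5 in mutant lungs, against 833.3, 603.1 and 596.7 in wild type lung at 7 months. The fold between wild type groups of the 2 ages was 4.30. The other 45 genes differed by less than 1.5-fold between the wild type groups, where 18.7% of all genes differed by at least that much. Age and the set of arrays cannot be told apart, and no test was made of it.

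Dim probe sets of Rps24 and Rps10, small subunit proteins, also differed between the ages. That of Rps24 read 68.1, 79.6 and 74.4 in wild type lung at 12 months, against 10.3, 26.6 and 6.88 in wild type lung at 7 months. That of Rps10 read 47.1, 35.5 and 35.9 at 12 months, against 130.8, 144.4 and 153.4 at 7 months. The chosen, bright probe sets of both genes did not follow: Rps24 and Rps10 differed by less than 1.5-fold there.

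**Figure D4:**
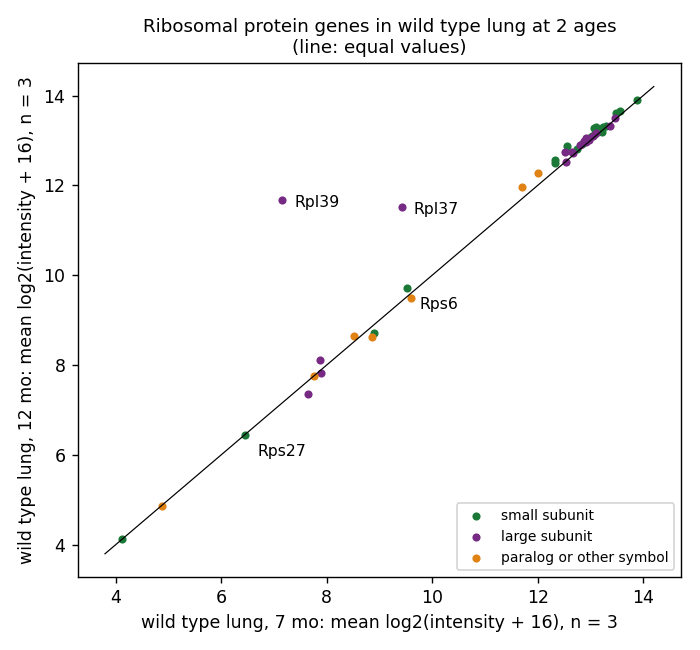
Mean level of each of the 47 ribosomal protein genes in wild type lung at 12 months (y) against wild type lung at 7 months (x), both as log2(intensity + 16) with 3 arrays, with the line of equal values. Rpl39 and Rpl37 lie far above the line and the other genes close to it.

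Genes around the ribosome were read from lists for comparison. Of 8 further ribosomal proteins outside the symbol rule, 4 were measured (Rplp0, Rplp2, Rpsa and Fau), and 0 were called in either comparison. Of 17 other TOP mRNAs, which encode mainly elongation and initiation factors, 16 were measured and 0 were called. Their median log2 difference was -0.04 in tumours and -0.05 in mutant lungs. Eef1a1, the main elongation factor, differed by -0.01 ± 0.07 in tumours (SE, adjusted p = 0.942).

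Of 49 measured ribosome biogenesis factors, which transcribe, process or assemble ribosomal RNA, 5 rose in tumours and 0 fell. This share is near the 9.23% of all genes that were higher. The list median was 0.13. Nop58, a core protein of the snoRNPs that guide methylation of ribosomal RNA, averaged 833.0 ± 44.5 in tumours, against 566.5 ± 48.9 in wild type lung at 12 months (SD, n = 3 each; log2 difference 0.55 ± 0.10 SE, adjusted p = 0.0180). Tsr1, a small subunit assembly factor, rose by 0.49 ± 0.11 (adjusted p = 0.0303). Nop16 rose by 0.41 (adjusted p = 0.0253), Bysl by 0.39 (adjusted p = 0.0232) and Fbl, the snoRNP methyltransferase, by 0.32 (adjusted p = 0.0376). In mutant lungs 0 of the 49 were called and the median was 0.02.

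Mitochondrial ribosomal proteins, which serve the separate ribosome of mitochondria, also held called genes. Of 76 measured, 5 rose in tumours and 0 fell, with a median of 0.15. Mrps6 averaged 2187 ± 596 in tumours, against 922.3 ± 179 in wild type lung at 12 months (SD, n = 3 each; 1.21 ± 0.23 SE, adjusted p = 0.0206), and Mrps18b rose by 0.64 ± 0.12 (adjusted p = 0.0191). In mutant lungs 6 of 76 rose and 0 fell, with a median of 0.11. Mrpl39 averaged 2291 ± 68.7 in mutant lungs and 1768 ± 64.2 in wild type lung at 7 months (0.37 ± 0.06, adjusted p = 0.00535). These shares can be read against the 9.23% and 6.42% of all genes that were higher.

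Among 21 measured genes of growth signalling to ribosomes, 1 fell in tumours, Tsc1, an inhibitor of mTOR complex 1 (-0.34 ± 0.08 SE, adjusted p = 0.0349), where 6.02% of all genes were lower. In mutant lungs 1 fell, Eif4ebp1, the translation repressor 4E-BP1 (-0.38 ± 0.09, adjusted p = 0.0339), where 1.39% of all genes were lower. In tumours Eif4ebp1 differed by 0.25 ± 0.08 (adjusted p = 0.0734), and its contrast between the comparisons passed (0.63 ± 0.11, adjusted p = 0.0111), the only one of the 21 to do so. Mtor itself differed by 0.00 ± 0.07 in tumours (adjusted p = 0.996). Myc, a transcription factor that activates ribosome genes, differed by 0.39 ± 0.10 (adjusted p = 0.0510).

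Of 12 measured genes from a list of p53 and its targets, set beside Rps27l, 1 rose and 1 fell in tumours. These were Perp, a desmosome protein (1.24 ± 0.19 SE, adjusted p = 0.0121), and the death receptor Fas (-0.52 ± 0.12, adjusted p = 0.0363). Of all genes, 9.23% were higher and 6.02% lower there. In mutant lungs 3 of the 12 rose and 1 fell, where 6.42% of all genes were higher and 1.39% lower. Eda2r, a receptor of the TNF family, rose by 0.53 ± 0.09 (adjusted p = 0.00695), Ccng1 by 0.29 ± 0.07 (adjusted p = 0.0451) and Mdm2, the p53 ubiquitin ligase, by 0.23 ± 0.06 (adjusted p = 0.0451), while Fas fell (-0.41 ± 0.09, adjusted p = 0.0278).

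**Figure D5:**
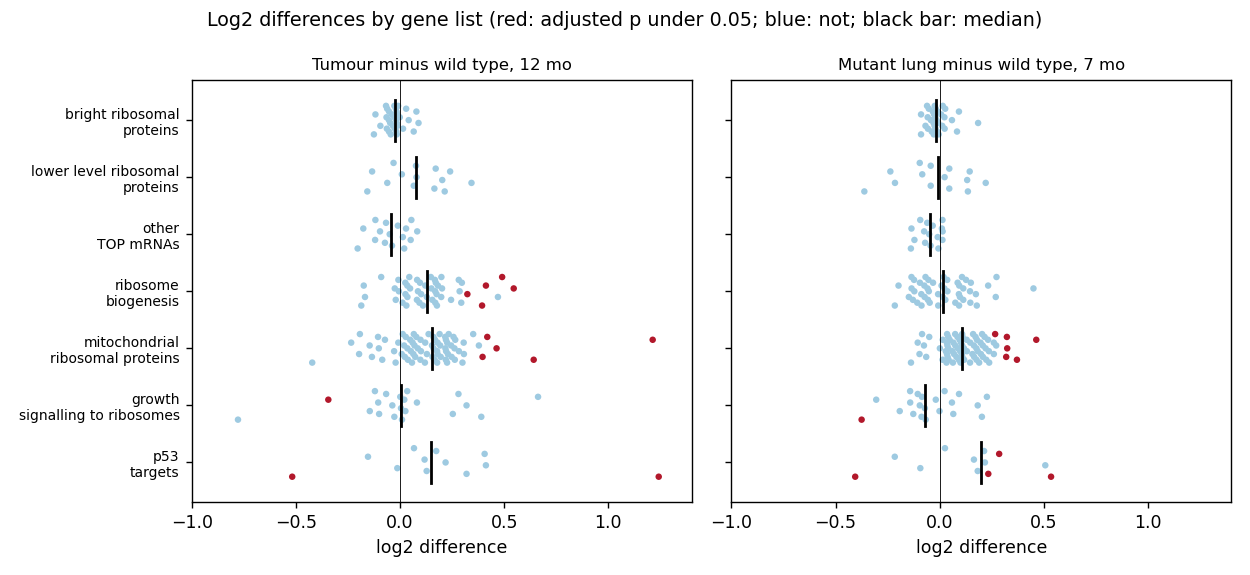
Log2 differences (x) of the genes of each list, for tumours and for mutant lungs, each minus wild type of its age. Red points passed the test (adjusted p under 0.05), blue points did not, and black bars are medians; ribosomal proteins and other TOP mRNAs have no red point, biogenesis factors have 5 in tumours, and mitochondrial ribosomal proteins 5 in tumours and 6 in mutant lungs.

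Markers of other cells differed between the groups. The summed intensity of 6 endothelial markers lay between 5679 and 7759 in tumours, against 9677 to 10950 in wild type lung at 12 months, with 4 of the 6 called lower. That of 6 macrophage markers lay between 8106 and 9412 in tumours and between 15580 and 20020 in wild type lung, with 3 of 6 called lower. Ciliated cell markers lay between 5033 and 8324 in tumours and between 2260 and 2988 in wild type lung, and all 5 were called higher. Cardiac muscle markers lay between 26010 and 29430 in tumours and between 11140 and 15960 in wild type lung, and all 6 were called higher. At 7 months, ciliated cell markers lay between 2799 and 3283 in mutant lungs and between 1267 and 1338 in wild type lung, with all 5 called higher. Endothelial markers lay between 11420 and 13780 in mutant lungs and between 15650 and 15980 in wild type lung, with 2 of 6 called lower. In whole tissue, fewer cells of a type and less RNA per cell cannot be told apart, and what these shifts add to the ribosomal protein signal was not tested. All 6 lung epithelial markers were measured, with sums from 41470 to 54080 over the 12 arrays, and 1 was called higher in each comparison. B cell markers summed to 838.6 to 1622 in tumours, against 694.6 to 810.1 in wild type lung at 12 months. Of the B cell, T and NK cell and red blood cell markers, 0 were called in either comparison. Of all genes, 9.23% were called higher and 6.02% lower in tumours, and 6.42% and 1.39% in mutant lungs.

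Sex differed between the arrays. Xist read 64.1 to 236.5 in the tumours, and 69.8 on 1 and 6786 and 6917 on the other wild type arrays at 12 months, with Y-linked genes high where Xist was low. At 7 months all mutant arrays and 2 of 3 wild type arrays had both Xist and Y-linked signal, and 1 wild type array had Xist at 48.1. Whether the arrays with both signals hold RNA of more than 1 animal was not tested. Their spread may therefore not be that of single animals, while each tumour array came from part of a single tumour. With the 1 wild type array of low Xist as the only control, its spread taken to be that of the other groups, 0 of the 47 genes were called, against 1342 of all genes higher and 827 lower. Their median log2 difference was -0.01. With 1 control array this says little about sex. Array medians lay between 90.9 and 99.5, and arrays of 1 group correlated at 0.982 to 0.994 over genes. The brightest values of these genes, up to 15887, lay near or at the highest value of any probe set on an array (15174 to 17030). On wild type arrays 1 and 3 at 7 months, Rps29 itself was that highest value (15555 and 15887). Whether the scale compresses differences at this level was not tested.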

How the data were processed

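Total RNA of mouse lung was extracted with TRIzol and RNeasy columns and labelled with the Affymetrix 3′ IVT Express protocol, per the labels' protocols. The deposited values are linear intensities of 45101 probe sets; their background correction, summarization and scaling are not given in the sources used here. The platform annotation gave 34958 probe sets 1 symbol. The 47 genes, the gene lists and the tests were chosen with earlier results of these data known. Log2(intensity + 16) was tested with limma 3.58.1 in R 4.3.3 (two-sided, Benjamini-Hochberg over 18193 genes), on 6 arrays at 12 months, 9 at 7 months and all 15 for the difference between ages. 3 arrays of a further 7-month group, and a further deletion in the mutant genotype, are not reported here; those arrays still count in the spread and in choosing probe sets. With 16 added, fold changes of dim genes are understated. Labels do not say that arrays of a group are separate animals, so p-values measure the spread between these samples, which may be technical, and 3 arrays per group limit the precision. Steps were tested on simulated data.

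Named were called genes, the 3 highest and 3 lowest of the 47 per comparison, a set of members and paralogs chosen by role, and up to 4 called genes per other list by smallest adjusted p. The age observations, other probe sets, non-overlapping genes and further list genes were named after their values were seen. Alternatives were quantile, median and 75th percentile scaling, pseudocounts of 1 and 64, the brighter genes, a variance trend, other probe set choices, other sets of arrays, a replicate block and leaving out each array.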

Additional observations from a re-analysis of the deposited data

Results flagged for a closer look

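Rpl14 lay on opposite sides of wild type in the 2 comparisons, neither of which passed the test (adjusted p = 0.204 in tumours and 0.134 in mutant lungs). It was higher than wild type on all 3 tumour arrays and lower than wild type on all 3 mutant arrays at 7 months. The log2 contrast between these differences was 0.417 ± 0.11 (SE), and its own test did not pass (limma, adjusted p = 0.0698; 0.0466 to 0.154 over the alternatives). It was read on a single probe set, with intensities between 179.4 and 262.3 on the 12 arrays.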

How the results depend on the processing

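The counts of 0 called ribosomal protein genes for tumours (17 alternatives) and for mutant lungs at 7 months (18 alternatives) stayed at 0 in each alternative run, including each fit without 1 array. For the contrast between ages the count was 1 with a pseudocount of 64 and 0 to 1 in fits without 1 array; the gene was Rpl14, called without the second wild type array at 12 months. The median log2 difference in tumours was 0.0656 when only probe sets ending in _at were used (25 of the genes; 0.00355 over all genes), against -0.0179; this setting changes both which genes and which probe sets are read, and the cause was not tested. Every other alternative moved the 3 medians by less than the spread of array medians within groups; in fits without 1 array they lay between -0.0443 and -6.64e-05 in tumours. The replicate block at 7 months gave a count of 0. Same-numbered arrays did not deviate together (r from -0.128 to 0.0245 in 3 pairs, against -0.0358 to 0.139 in 6 pairs of different number). No sign of pairing by number was thus seen, but 3 pairs cannot exclude it. The 18S difference lay between -1.99 and -1.93 under 5 other scalings and pseudocounts, chosen after seeing the data. Signal limits Rps16 and Rpl3l, whose probe sets lay near or below the 16 added.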
